A study of Homo sapiens with 8 samples.

Results

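H3K9me3, trimethylation of lysine 9 of histone H3, was measured against input at promoters of SiHa cells that had crossed a transwell membrane. The comparison used 4 of the 8 libraries of the series, taken by their labels: the H3K9me3 chromatin immunoprecipitation (ChIP) library and the input library of migrated cells in each of 2 replicate sets. SiHa is an established cell line grown from a squamous cell tumour of the cervix, and it was the only line used. Each well received 750000 cells on the membrane, and the cells that had passed through it within 10 h were collected. The other 4 libraries come from the cells that had not crossed. No gene was altered and no agent was added to either group. The input group holds sonicated chromatin without antibody, and the ChIP group holds chromatin drawn down with an antibody to H3K9me3. Set 1 was made with a TruSeq ChIP kit and gel extraction, had many duplicate reads, and was used after these were removed. Set 2 is labelled as a second biological replicate and was made with beads and an NEB Ultra kit. For the H3K9me3 library of set 1 the title gives replicate 1 and the description replicate 2, and it was placed in set 1 by its title; the table it comes from is also that of set 1. The kit thus differs between the sets and not between ChIP and input. The study, by its title, links SUV39H1, an enzyme that writes this mark, to migration, and the comparison below asks where in the genome migrated cells carried it. Promoter H3K9me3 is not a readout of expression, so the identity of the line was not checked against marker genes.

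H3K9me3 is written by SUV39H1, SUV39H2, SETDB1 and related methyltransferases and is bound by HP1 proteins, which pack chromatin into a compact and mostly silent form. It covers repeats next to centromeres, transposable elements, and gene families that a cell type keeps silent, among them zinc finger, olfactory receptor and germline genes. In cells that express KAP1 (TRIM28), proteins with C2H2 zinc fingers and a KRAB domain recruit SETDB1 to such sites, including to the zinc finger gene clusters themselves. Active promoters, often rich in CpG dinucleotides, usually lack the mark.

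The files covered 38157 promoter windows on hg19, most of them 2100 bases long. The windows held 684949 reads in the input and 88028 reads in the H3K9me3 library of set 1, and 1679874 and 984835 reads in set 2. The median window held 1 H3K9me3 read in set 1 and 17 in set 2, against 17 and 40 input reads, and 30.5% and 4.02% of windows held no H3K9me3 read. Set 2 therefore carried most of the H3K9me3 reads. Values below are log2 of H3K9me3 over input from limma's fit of the 4 libraries with the set as a block, given with the SE of that fit and n = 2 sets. A value of 0 is the centre set by trimmed means (TMM), called the typical promoter, and the median tested window lay at -0.08. A window was called enriched or lower at an adjusted p of 0.05 over the 34860 windows that passed the filter on low reads. A gene stands for its window with the most input reads, which gave 22450 genes. Of these, 9058 lay on the strand of the RefSeq gene of that symbol, 1791 on the opposite strand and 11601 could not be assigned, so a value need not be that of the gene's own start. In pooled cells a mark carried by fewer cells and a weaker mark in each cell cannot be told apart.

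The sequences below show the promoters that stood at both ends of the comparison. They are the 200 bases upstream of the RefSeq start on GRCh38.p14, 5′ to 3′ on the gene's strand, with CpG dinucleotides in capitals. The genes had a single window, on the RefSeq strand. The first 4 were the enriched genes of highest log2 with at least 5 reads in every library, and the last 3 the lower genes of smallest p with at least 20 input reads in each input library. The windows are on hg19 and could not be placed on these coordinates, so the printed stretch need not lie inside the window.
MAGEL2 (enriched, chr15:23647868-23648067, minus strand): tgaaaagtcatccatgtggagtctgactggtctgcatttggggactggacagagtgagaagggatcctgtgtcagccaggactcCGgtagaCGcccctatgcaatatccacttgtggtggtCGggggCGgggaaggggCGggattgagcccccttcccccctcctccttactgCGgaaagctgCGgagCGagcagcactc
ZNF814 (enriched, chr19:57889038-57889237, minus strand): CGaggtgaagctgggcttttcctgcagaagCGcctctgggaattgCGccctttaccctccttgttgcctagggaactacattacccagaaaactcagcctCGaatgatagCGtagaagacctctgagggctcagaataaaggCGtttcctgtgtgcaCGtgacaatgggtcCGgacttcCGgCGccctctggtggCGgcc
ZNF208 (enriched, chr19:22010944-22011143, minus strand): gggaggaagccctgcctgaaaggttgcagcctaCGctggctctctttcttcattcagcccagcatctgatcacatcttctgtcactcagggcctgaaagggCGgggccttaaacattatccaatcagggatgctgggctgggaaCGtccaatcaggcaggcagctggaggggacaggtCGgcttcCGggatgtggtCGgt
GSC (enriched, chr14:94770114-94770313, minus strand): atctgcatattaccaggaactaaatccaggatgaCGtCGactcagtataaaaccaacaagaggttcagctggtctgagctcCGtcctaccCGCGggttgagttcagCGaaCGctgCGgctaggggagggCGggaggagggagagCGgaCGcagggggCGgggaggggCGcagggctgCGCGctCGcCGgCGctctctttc
MVD (lower, chr16:88663092-88663291, minus strand): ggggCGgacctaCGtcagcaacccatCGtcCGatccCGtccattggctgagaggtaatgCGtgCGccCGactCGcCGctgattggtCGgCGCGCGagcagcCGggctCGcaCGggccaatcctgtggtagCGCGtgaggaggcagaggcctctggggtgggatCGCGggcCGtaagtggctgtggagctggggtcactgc
SENP3 (lower, chr17:7561719-7561918, plus strand): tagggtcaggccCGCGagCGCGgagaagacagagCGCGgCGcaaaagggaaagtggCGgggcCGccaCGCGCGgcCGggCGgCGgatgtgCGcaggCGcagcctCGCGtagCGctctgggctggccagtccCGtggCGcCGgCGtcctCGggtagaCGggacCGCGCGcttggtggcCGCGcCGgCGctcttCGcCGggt
MT2A (lower, chr16:56608384-56608583, plus strand): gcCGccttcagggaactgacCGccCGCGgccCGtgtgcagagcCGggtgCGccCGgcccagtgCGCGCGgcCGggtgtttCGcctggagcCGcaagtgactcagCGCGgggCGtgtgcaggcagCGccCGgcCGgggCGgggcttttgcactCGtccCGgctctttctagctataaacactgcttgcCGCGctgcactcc
The printed stretches hold 8, 11, 6 and 18 CpG in the enriched genes and 22, 35 and 25 in the lower ones. MVD encodes an enzyme of the mevalonate pathway, SENP3 a SUMO protease and MT2A a metallothionein, and in set 2 they held 12, 18 and 5 H3K9me3 reads against 221, 241 and 123 input reads. GSC, the homeobox gene goosecoid, held 17 H3K9me3 reads against 14 input reads in set 1 and 138 against 37 in set 2. The 3 lower promoters had more CpG than the 4 enriched ones, and CpG counts in a longer stretch over 4914 genes are given further on.

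H3K9me3 stood above the typical promoter in 6658 of 34860 windows (19.1%) and below it in 7965 (22.8%). By gene, 4262 of 22450 were enriched (19%) and 5491 were lower (24.5%). Enriched windows had a median log2 of 1.49, or 2.81-fold, and 5921 of them (88.9%) lay above 0 in each set taken alone. They held 17.3% of input reads and 44.6% of H3K9me3 reads in set 1 (95% Wilson interval 44.30 to 44.96), and 16.4% and 48.0% in set 2 (47.88 to 48.08). Lower windows had a median log2 of -2.30, or 0.204 of the typical promoter, and held 4.87% and 4.56% of H3K9me3 reads against 24.1% and 29.1% of input reads. Set 1 had no H3K9me3 read in 5248 of the 7965 lower windows, and 329 had none in either set. Values in the sets correlated at r = 0.613 across windows, which are not independent replicates. The windows were called from these same reads, so their read shares and equal signs follow in part from the calls and are no separate support. Intervals here and below cover counting error only.

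**Figure D1:**
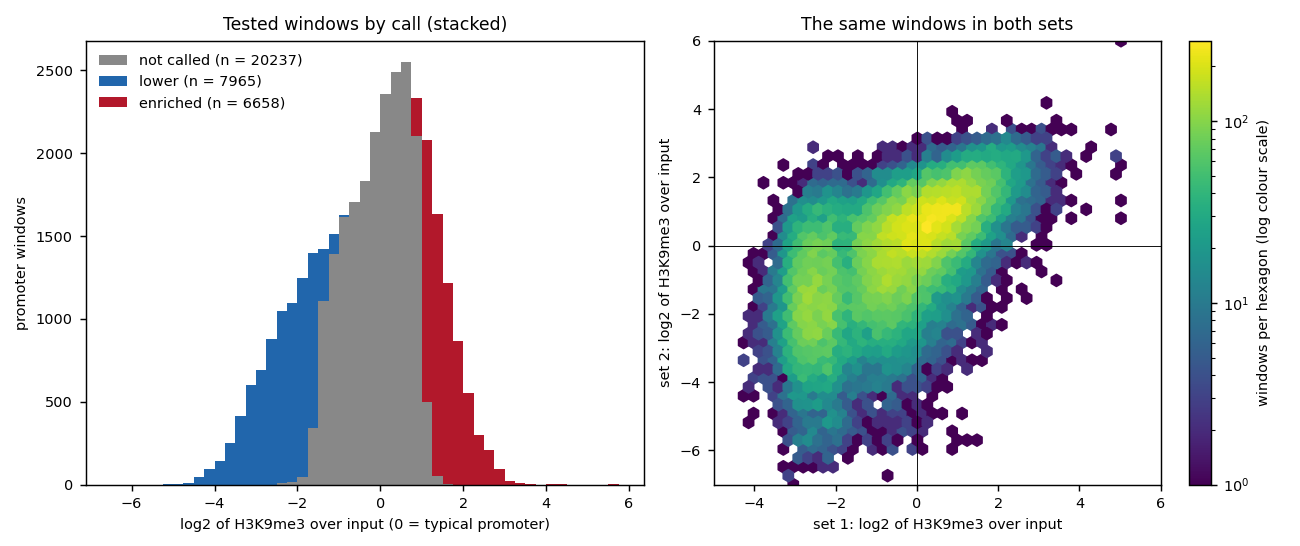
Left, stacked histogram of log2 of H3K9me3 over input for the 34860 tested windows (x axis, 0 is the typical promoter; y axis, number of windows), coloured by call. Right, the same windows in set 1 (x axis) against set 2 (y axis), with colour giving windows per hexagon on a log scale; the vertical band near -2.5 in set 1 holds windows with 0 H3K9me3 reads there, and r was 0.613.

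These counts depend on the centre, on the block for the set and on single libraries. Fits of migrated cells with 1 library left out also dropped the block, so their counts here and below reflect both changes. On the scale of the deposited values the median of all tested windows lay at -2.65 in set 1 and -0.88 in set 2, and 14 windows were enriched and 15810 lower. On the deposited scale 7.88% of the 6658 enriched windows lay above 0 in set 1 and 98.6% did so in set 2. With ribosomal protein and oxidative phosphorylation promoters as the centre the counts were 15370 and 5577, which moved the median of all windows to 0.60. Without the set 1 input the fit called 322 windows enriched, without the set 2 input 1657, without the set 2 H3K9me3 library 2793 and without the set 1 H3K9me3 library 5795. The lower windows numbered 2507 without the set 1 input and 1398 without the set 2 input. Without the block for the set it called 3387 enriched and 6514 lower windows. Gene classes are therefore described by their distance from the median of all genes (-0.13), and the sign of that distance held in all of 15 alternatives for the lists named below, except where a turn is given. It turned in at least 1 alternative for keratins, type I interferons, ADAM proteases, collagens and laminins, mesenchymal genes, cytochrome P450 genes and zinc finger genes outside chromosome 19, and no distance from all genes is read from these. The plot of gene classes gives the counts for each list.

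**Figure D2:**
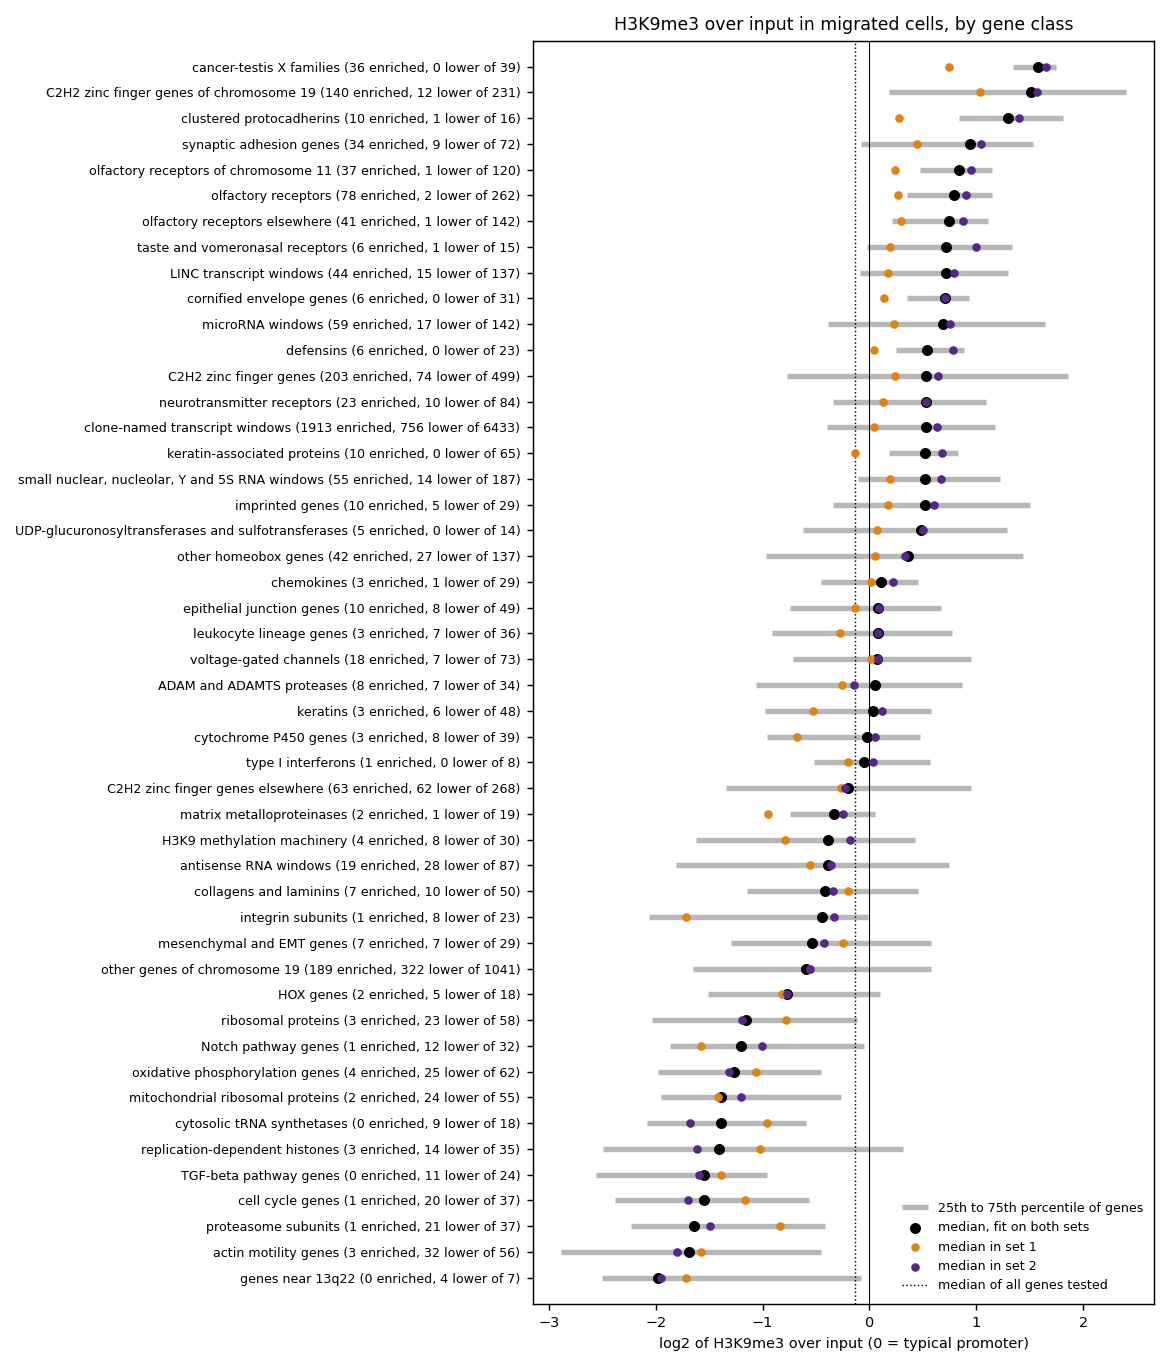
Median log2 of H3K9me3 over input per gene class (x axis, 0 is the typical promoter; y axis, classes with the number enriched and lower of the genes tested), with the 25th to 75th percentile of genes as a bar and the medians of each set as coloured points. Cancer-testis families and zinc finger genes of chromosome 19 stood highest (1.58 and 1.51) and actin motility genes near the bottom (-1.69); on the scale of the deposited values all but the noncoding RNA of the Prader-Willi region, which is not drawn, had medians below 0.

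Of the 15 highest promoters, 3 belonged to zinc finger genes, 2 to the imprinted region of chromosome 15 and 6 to clone-named transcripts. ZNF98, a C2H2 zinc finger gene (chromosome 19, 22605048 to 22607148), held 14 H3K9me3 reads against 8 input reads in set 1 and 148 against 22 in set 2. Both sets were high, at log2 3.44 and 3.75, and the fit gave 12.8-fold (3.68 ± 0.42, adjusted p = 1.54e-12). MAGEL2, a ubiquitin ligase regulator expressed from the paternal chromosome (chromosome 15, 23891075 to 23893175), held 8 against 12 reads in set 1 and 175 against 30 in set 2, which gave 9.78-fold (3.29 ± 0.41, adjusted p = 4.28e-11). PDE10A, a phosphodiesterase of striatal neurons (chromosome 6, 166075488 to 166077588), held 7 against 5 and 129 against 26 reads, which gave 9.73-fold (3.28 ± 0.43). MDGA2, an adhesion protein that curbs synapse formation (chromosome 14, 48144057 to 48146157), held 9 against 7 and 149 against 31 reads, which gave 9.37-fold (3.23 ± 0.41). ANKRD30BL, an ankyrin repeat gene on chromosome 2, held 16 against 12 and 280 against 63 reads (8.88-fold). The zinc finger genes ZNF814 and ZNF667 of chromosome 19 followed at 8.80-fold and 8.49-fold, and ZNF667 was weaker in set 1 (log2 0.88) than in set 2 (3.62). In each of the other genes named in this ranking both sets lay above 2. Clone-named transcripts made up 6 of the 15 highest, between 8.13-fold and 9.18-fold, among them RP11-745L13.2 on chromosome 4, AC104117.1 and RP11-281O15.3 side by side on chromosome 5 and AC123912.1 on chromosome 19. The highest value of all came from a copy of a 5.8S ribosomal RNA gene, whose reads cannot be told from those of other copies, and it is not described further.

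The lower promoters of smallest p lay mostly on chromosome 16, with others on 5, 8, 9 and 11. ACD, a subunit of the shelterin complex that guards telomeres (chromosome 16, 67692851 to 67694951, opposite strand), held 0 H3K9me3 reads against 48 input reads in set 1 and 5 against 323 in set 2. Both sets were far below the typical promoter, at log2 -3.93 and -4.85, and the fit gave 0.0395 of it (-4.66 ± 0.63, adjusted p = 9.12e-10). COG4, a subunit of the Golgi tethering complex, held 0 against 56 and 4 against 159 reads (log2 -4.12 ± 0.69). KARS, the lysyl-tRNA synthetase, held 0 against 39 and 4 against 171 reads (-4.08 ± 0.67). MRPL36, a mitochondrial ribosomal protein on chromosome 5 (opposite strand), held 0 against 39 and 5 against 185 reads (-3.96 ± 0.63). ESRP2, a splicing factor of epithelial cells, held 4 against 58 and 13 against 262 reads (-2.77 ± 0.45). ANAPC2, a core subunit of the anaphase-promoting complex on chromosome 9, held 0 against 23 and 3 against 158 reads, and its ratio in set 2 was 0.0388 (95% exact counting interval 0.00792 to 0.116). NME3, SHARPIN, FAM173B, C16orf7, KIAA0895L, KIAA0182, AC116351.2, PIDD and FAM96B completed the 15, between log2 -4.22 and -2.57. Of the autosomes and X, chromosome 16 had the most input reads per window, with a median of 27 in set 1 and 81 in set 2. More reads narrow the error of a low value, and the part of depth in this ranking was not tested.

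**Figure D3:**
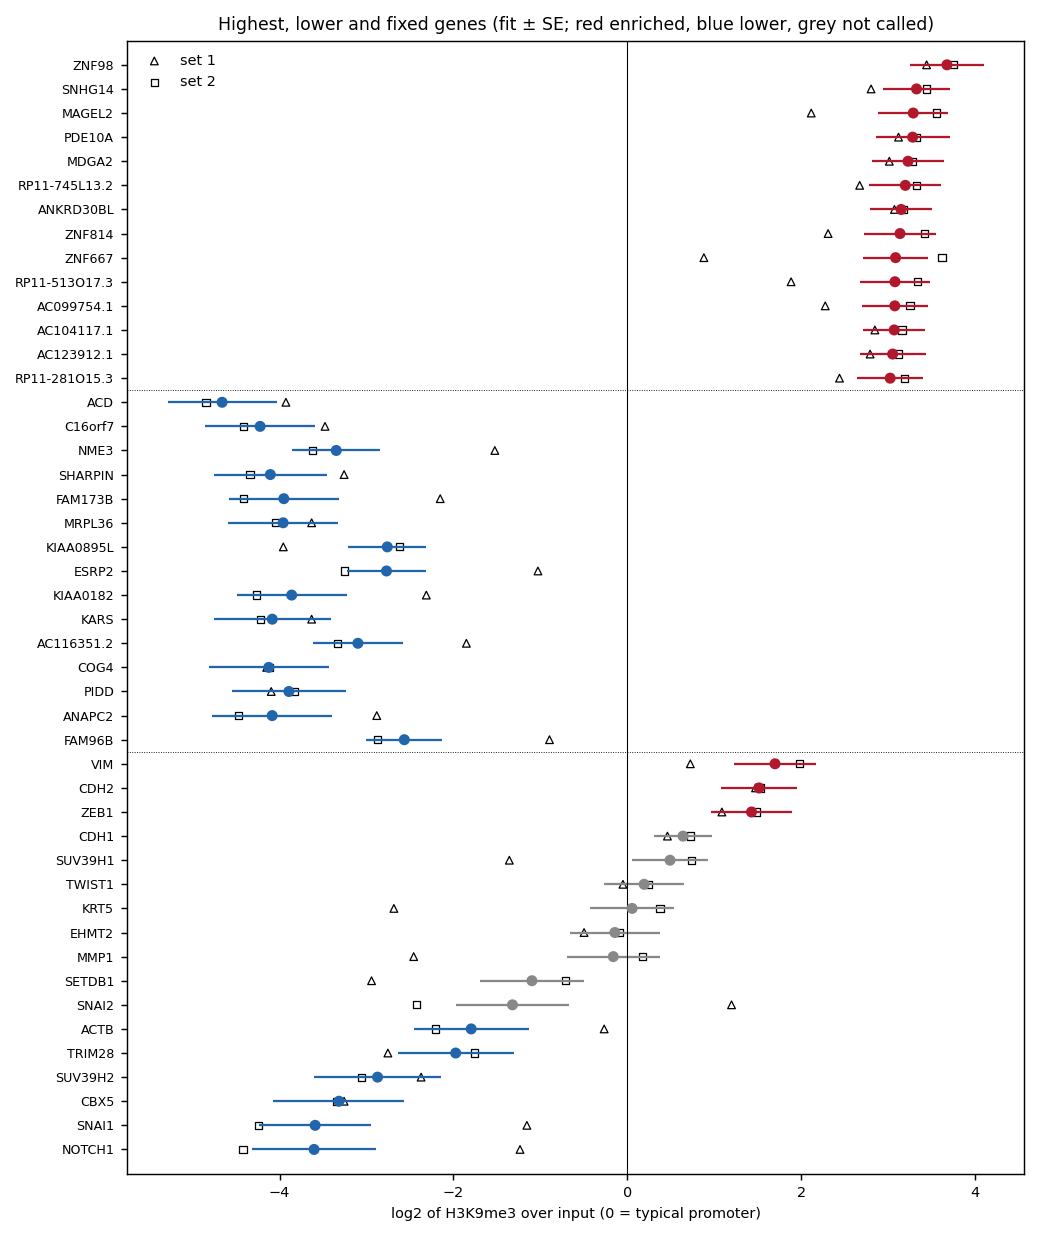
Log2 of H3K9me3 over input (x axis) for the highest genes, the lower genes of smallest p and the fixed genes (y axis, in that order, parted by dotted lines), as the fit with its SE (filled, red enriched, blue lower, grey not called) and as each set alone (open). ZNF98 lay at 3.68 and ACD at -4.66, and SUV39H1, at 0.49, had sets on both sides of 0.

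Genes with C2H2 zinc fingers, often repressors of transposable elements, carried the mark on chromosome 19 and less so elsewhere. By symbol, 511 such genes were listed and 499 were tested, and over all genes 19% were enriched and 24.5% lower. On chromosome 19, 140 of 231 were enriched and 12 lower, with a median log2 of 1.51, which lay 1.64 above the median of all genes (1.45 to 1.84 over the alternatives). Elsewhere 63 of 268 were enriched and 62 lower, and their median of -0.20 did not stand apart from all genes, since the sign of the distance turned in 5 of 15 alternatives. Other genes of chromosome 19 had 189 of 1041 enriched and 322 lower (median -0.59). Leaving out 1 library at a time moved the enriched count on chromosome 19 to 40 without the set 1 input, 99 without the set 2 input, 91 without the set 2 H3K9me3 library and 136 without that of set 1. The members of smallest p besides ZNF98 were ZSCAN18 on chromosome 19, with 17 against 22 reads in set 1 and 227 against 50 in set 2 (7.49-fold, 2.91 ± 0.35). Both sets of ZSCAN18 were high, at 2.31 and 3.20. In the lower direction they were ZNF34 on chromosome 8, with 2 H3K9me3 reads against 36 and 3 against 139, and a window of ZNF319 on chromosome 16 on the opposite strand, with 0 against 38 and 3 against 132. ZNF34 was fitted at log2 -3.63 ± 0.64, and the ratio of ZNF319 in set 2 was 0.0465 (95% exact interval 0.00946 to 0.139).

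Imprinted genes, which are expressed from 1 parental chromosome, split by region. Of 29 tested, 10 were enriched (34.5%) and 5 lower (17.2%), against 19% and 24.5% of all genes. Their median log2 of 0.52 lay 0.65 above all genes (0.47 to 0.76 over the alternatives). The enriched count was 1 without the set 1 input, 5 without the set 2 input and 3 without the set 2 H3K9me3 library. Enriched members included MAGEL2 and ZIM2, a zinc finger gene next to PEG3 on chromosome 19, which held 12 H3K9me3 against 14 input reads in set 1 and 213 against 52 in set 2 (7.51-fold, 2.91 ± 0.37). On chromosome 15 a run of 33 neighbouring tested windows from 23808454 to 25523590 was enriched, its ends set by where the enriched calls stop. It went from MKRN3 through MAGEL2, NDN, SNRPN and SNURF to the noncoding RNA SNHG14. Together these windows, grouped by their calls, held 767 H3K9me3 against 1242 input reads in set 1 and 13668 against 3819 in set 2. Their median log2 was 2.10 in set 1 and 2.72 in set 2. NDN, which encodes the growth suppressor necdin, held 6 against 23 and 96 against 36 reads (2.07 ± 0.40), and SNRPN, a splicing protein gene at the imprinting centre, had windows between 1.81 and 2.58. The window of SNHG14 with the highest value held 11 against 10 and 258 against 48 reads (10.0-fold), and its window with the most reads held 166 against 206 and 3284 against 906 (6.25-fold). UBE3A, the maternally expressed ubiquitin ligase that follows, was not called (0.14 ± 0.52, adjusted p = 0.844). PHLDA2, a growth restraint gene of the chromosome 11 cluster, held 0 against 10 and 3 against 74 reads and was lower, with a ratio of 0.0829 in set 2 (95% exact interval 0.0167 to 0.252), as was BLCAP on chromosome 20 (11 against 101 reads in set 2, log2 -2.02 ± 0.57). Both parental copies are read together, so these ratios are averages over them.

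Cancer-testis genes, which are used in the germline and kept silent in most other tissues, had the highest median of the lists with more than 1 gene. The list counted the MAGE, GAGE, PAGE, XAGE, SSX, SPANX, CT45, CT47 and VCX families of chromosome X, near-identical copies that share reads, and 39 of 92 members had enough reads to test. Of these 39, 36 were enriched and 0 lower, at a median log2 of 1.58, which lay 1.71 above all genes (1.48 to 1.86 over the alternatives). With at least 10 reads asked of each input library, which does not look at the H3K9me3 reads, 28 of 33 were enriched. Set 1 alone gave a median of 0.75 and set 2 alone 1.65. Leaving out the set 1 input left 1 of 39 enriched, the set 2 input 4 and the set 2 H3K9me3 library 11, with medians of 1.04 or more in each case. PAGE1 held 11 against 16 and 130 against 58 reads, and its sets were alike at 2.15 and 2.19 (4.53-fold, 2.18 ± 0.37). PAGE5 held 10 against 24 and 77 against 31 reads (4.17-fold, 2.06 ± 0.39).

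Olfactory receptors, the odour sensors of the nasal epithelium, stood above other genes by a modest median. Of 262 tested, 78 were enriched and 2 lower, against 19% and 24.5% of all genes, and their median of 0.79 lay 0.93 above all genes (0.69 to 1.06). The enriched count was 2 without the set 1 input, 5 without the set 2 input, 34 without the set 2 H3K9me3 library and 61 without that of set 1. The lower count rose to 28 without the set 2 H3K9me3 library. A further 27 listed olfactory receptors had too few reads to test. With at least 10 reads in each input library, 45 of 245 were enriched (18.4%) and 2 lower, against 13.6% and 20.7% of all windows. The medians on chromosome 11 and elsewhere were alike, at 0.84 and 0.74. OR2L13 on chromosome 1 had the smallest p of the class, with 14 against 12 and 178 against 46 reads (7.73-fold, 2.95 ± 0.38), and both of its sets gave 2.89 or more. OR7D2 held 9 against 14 and 47 against 15 reads (5.53-fold, 2.47 ± 0.47). The lower members, OR2A14 and OR51V1, held 1 H3K9me3 read each in set 2 against 38 and 24 input reads, with ratios of 0.0538 (95% exact interval 0.00133 to 0.318) and 0.0852 (0.00207 to 0.522). Of taste and vomeronasal receptors, sensors of tastants and pheromones, 6 of 15 were enriched. The pheromone receptor gene VN1R2 led them, at 9 against 8 and 92 against 37 reads (5.36-fold), and its neighbour VN1R4 followed at 3.79-fold. Both lie inside the longest enriched run of chromosome 19, described below, while the umami receptor gene TAS1R1 was lower (0 against 26 and 16 against 83 reads, log2 -1.60 ± 0.58).

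Neuronal adhesion families also stood above all genes, of which 19% were enriched and 24.5% lower. Of 16 clustered protocadherins, cell surface labels of single neurons, 10 were enriched and 1 lower, with a median 1.43 above that of all genes (0.93 to 1.68 over the alternatives). This rested mostly on set 2, where the median was 1.40, against 0.27 in set 1, and without the set 2 H3K9me3 library 2 were enriched, while none was without the set 1 input and 3 were without the set 2 input. PCDHA1 held 6 against 21 and 123 against 54 reads (3.86-fold) and PCDHB15 held 2 against 16 and 82 against 26 (4.60-fold), so that PCDHB15 lay at -0.05 in set 1 and 2.67 in set 2. PCDHGA1, in a window within the gamma cluster, was lower, with 0 against 27 and 5 against 45 reads (-2.29 ± 0.70). Of 72 synaptic adhesion genes, cadherins included, 34 were enriched and 9 lower, with a median of 0.94 (1.07 above all genes, 0.77 to 1.15). Without the set 1 input 1 was enriched, without the set 2 input 10 and without the set 2 H3K9me3 library 13. With at least 10 reads in each input library, 24 of 62 synaptic adhesion genes were enriched (38.7%) and 7 lower (11.3%), against 13.6% and 20.7% of all windows. NEGR1, a neuronal growth regulator, held 12 against 15 and 79 against 22 reads (6.48-fold, 2.70 ± 0.41). DLG2, a postsynaptic scaffold, held 42 against 88 and 565 against 195 in a window on the opposite strand (4.49-fold). DSCAML1 went the other way with 0 against 27 and 6 against 96 reads (-2.91 ± 0.63), and CDH24 held 0 H3K9me3 reads in both sets against 23 and 69 input reads.

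Receptors and channels of neurons had smaller enriched shares. Of 84 neurotransmitter receptor genes 23 were enriched (27.4%) and 10 lower (11.9%), against 19% and 24.5% of all genes. Their median was 0.53, and the enriched count was 2 without the set 1 input, 7 without the set 2 input and 5 without the set 2 H3K9me3 library. The lower count was 20 without the last of these. With at least 10 reads in each input library, 14 of 73 neurotransmitter receptor genes were enriched (19.2%) and 7 lower (9.59%), against 13.6% and 20.7% of all windows. For voltage-gated channel genes this filter gave 14 of 64 (21.9%) and 4 (6.25%). The difference from the adhesion genes was not tested. The glutamate receptor gene GRM6 held 7 against 16 and 135 against 52 reads (4.70-fold), and an opposite-strand window of GABRA4, a GABA receptor subunit, held 7 against 11 and 78 against 26 (5.62-fold). The glutamate receptor gene GRM8 was lower, with 0 against 24 and 4 against 85 reads. Of 73 voltage-gated channel genes 18 were enriched and 7 lower, with an enriched share of 24.7%, and 1, 6 and 7 were enriched without the same libraries. The lower count was 18 without the set 2 H3K9me3 library. The called channel genes of smallest p included the potassium channel genes KCNH7 (90 against 33 reads in set 2, 5.36-fold) and KCNA4 (90 against 36, 4.52-fold), both enriched, and KCNF1 (5 against 59, log2 -2.36 ± 0.66), which was lower. Homeobox genes outside the HOX clusters had 42 of 137 enriched (30.7%) and 27 lower (19.7%). Of them 7 were enriched without the set 1 input and 28 without the set 2 input or the set 2 H3K9me3 library. IRX1, on the opposite strand, held 27 against 35 and 430 against 112 reads (6.61-fold) and BARHL1 held 16 against 12 and 183 against 55 (7.16-fold), while the forkhead genes FOXS1 and FOXL2, which the list also holds, lay at log2 -2.23 ± 0.43 and, on the opposite strand, -2.94 ± 0.67. HOX genes, which set position along the body axis, had 2 of 18 enriched (11.1%) and 5 lower (27.8%), with a median of -0.77. HOXC5 held no H3K9me3 read in either set against 27 and 56 input reads, while HOXD3 and an opposite-strand window of HOXA3 were enriched at 2.19-fold and 2.07-fold. HOXD3 lay at -0.47 without the set 2 H3K9me3 library.

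Several gene clusters of skin and immunity lay above all genes by their medians, with few calls. Keratin-associated proteins, which fill the hair shaft, had 10 of 65 enriched and 0 lower at a median of 0.52, and cornified envelope genes, which seal the epidermis, 6 of 31 and 0 at 0.70. Both medians fell to -0.03 and -0.15 without the set 2 H3K9me3 library, and the enriched shares of 15.4% and 19.4% were near the 19% of all genes. Without the set 2 H3K9me3 library 10 and 5 were lower, and without the set 1 input 1 and 0 were enriched. KRTAP4-6 held 8 against 19 and 87 against 28 reads (5.12-fold), KRTAP5-9 held 9 against 14 and 102 against 42 (4.76-fold), and TCHH, which encodes trichohyalin, held 8 against 10 and 28 against 26 (2.82-fold). Keratins had 3 of 48 enriched and 6 lower. KRT8 and KRT7, keratins of simple epithelia, held no H3K9me3 read in set 1 and 4 against 96 and 2 against 90 in set 2, and both were lower, whereas KRT72, a keratin of the hair root, held 11 against 20 and 104 against 56 (3.73-fold). KRT5, the basal keratin of squamous epithelium, was not called (0.06 ± 0.48), with sets at -2.69 and 0.38. Defensins, antimicrobial peptides, had 6 of 23 enriched and 0 lower, but 0 enriched without the set 1 input, the set 2 input or the set 2 H3K9me3 library, and 4 lower without the last. They were led by DEFB128 (62 against 30 reads in set 2, 3.54-fold). Chemokines had 3 of 29 enriched, and leukocyte lineage genes 3 of 36 with 7 lower, among them CD7, a T cell surface protein, at 16 against 19 and 435 against 163 reads (5.43-fold, sets at 2.43 and 2.45). Cytochrome P450 genes had 3 of 39 enriched and 8 lower, and enzymes that attach glucuronic acid or sulfate 5 of 14 and 0, among them UGT2B15 (39 against 25 reads in set 2, 3.59-fold).

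Several kinds of noncoding transcript had larger enriched shares than the 19% of all genes. Clone-named transcripts, for which only a clone identifier is given, had 1913 of 6433 enriched (29.7%) and 756 lower, LINC transcripts 44 of 137 (32.1%), small nuclear, nucleolar, Y and 5S RNAs 55 of 187 (29.4%) and microRNAs 59 of 142 (41.5%). Their medians lay 0.65 to 0.85 above all genes. Without the set 1 input the enriched counts were 87, 5, 1 and 0, without the set 2 input 456, 11, 5 and 27, and without the set 2 H3K9me3 library 781, 20, 26 and 25. The microRNAs MIR498 and MIR526B of the primate-specific cluster on chromosome 19 held 20 against 39 and 170 against 64 reads (4.48-fold) and 15 against 26 and 152 against 58 (4.73-fold). MIR22HG, the host of miR-22, held 0 against 28 and 1 against 88 reads, and MIR192 was lower as well (15 against 155 in set 2, log2 -2.15 ± 0.48). LINC00273, near the centromere of chromosome 16, held 108 against 97 and 838 against 196 reads (7.94-fold, 2.99 ± 0.28), and LINC00413 on chromosome 13 held 4 against 2 and 108 against 20 (10.9-fold). The median window held 17 and 40 input reads, far fewer than LINC00273, and whether its reads come from that locus alone was not tested. Antisense transcripts had 19 of 87 enriched (21.8%) and 28 lower (32.2%), with a median of -0.39, the lower ones including RUSC1-AS1 (6 against 113 reads in set 2). Small RNA symbols stand for many copies of a gene, and reads of such copies are hard to place.

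Housekeeping promoters lay below all genes by the median of each of 7 lists. For comparison, 24.5% of all genes were lower and 19% enriched. Ribosomal protein genes had 23 of 58 lower and 3 enriched (median -1.16), mitochondrial ribosomal protein genes 24 of 55 and 2 (-1.39), oxidative phosphorylation genes 25 of 62 and 4 (-1.27), proteasome subunits 21 of 37 and 1 (-1.64), cytosolic tRNA synthetases 9 of 18 and 0 (-1.39), replication-dependent histones 14 of 35 and 3 (-1.41) and cell cycle genes 20 of 37 and 1 (-1.55). Their medians were negative in all 15 alternatives and lay 1.02 to 1.50 below all genes. Without the set 1 input or the set 2 input the lower counts fell, to 4 and 3 for cell cycle genes. RPLP0, the stalk protein of the large ribosomal subunit (opposite strand), held 0 against 22 and 6 against 111 reads (-3.02 ± 0.64). PSMA7, a subunit of the proteasome core, held 2 against 25 and 3 against 97 reads (-3.11 ± 0.65), and PCNA, the replication clamp, held 0 against 22 and 2 against 69, a ratio of 0.0593 in set 2 (95% exact interval 0.00704 to 0.222). Exceptions were named by the same rule. RPL10 on chromosome X held 8 against 24 and 93 against 52 reads (3.25-fold) and COX7B, a subunit of cytochrome oxidase on X, held 5 against 19 and 47 against 33 (2.54-fold). PSMA8, the testis form of a proteasome subunit, was the only enriched member of its class (46 against 34 reads in set 2, 2.39-fold), and HIST1H1A, a linker histone, held 4 against 9 and 50 against 24 (3.94-fold).

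Genes of movement through a membrane fell into unlike groups, set beside 19% enriched and 24.5% lower over all genes. Actin motility genes, which build and turn over the cell's leading edge, had 32 of 56 lower (57.1%) and 3 enriched, with a median of -1.69, which lay 1.55 below all genes (1.16 to 1.71 below over the alternatives). With 1 library left out, 12 to 33 were lower, the fewest without the set 2 input. PTK2, focal adhesion kinase, held 1 against 44 and 5 against 103 reads (0.125 of the typical promoter), and RHOD, a small GTPase, held 0 against 25 and 3 against 87, a ratio of 0.0705 in set 2 (95% exact interval 0.0143 to 0.213). DIAPH2 on chromosome X, a formin, was enriched at 11 against 29 and 127 against 49 reads (4.17-fold), as was the kinase gene PAK7 (75 against 32 reads in set 2, 4.38-fold). Integrin subunits had 8 of 23 lower and 1 enriched (median -0.44), and 3 were lower without the set 1 input, 0 without the set 2 input and 13 without the set 2 H3K9me3 library. ITGA6, the laminin receptor subunit of basal keratinocytes, held 3 against 48 reads in set 2 on the opposite strand, and ITGA8 was enriched (32 against 24, 2.65-fold). Matrix metalloproteinases, which cut extracellular matrix, had 2 of 19 enriched and 1 lower, with MMP16 at 7 against 6 and 67 against 30 reads (5.02-fold) and MMP1, the interstitial collagenase, not called (-0.16 ± 0.53). ADAM and ADAMTS proteases had 8 of 34 enriched (23.5%) and 7 lower (20.6%). The enriched ones were led by ADAMTS5, an aggrecan-cutting protease, at 15 against 16 and 130 against 35 reads (6.99-fold, 2.81 ± 0.37). Collagens and laminins had 7 of 50 enriched (14%) and 10 lower (20%). LAMA1 held 66 against 28 reads in set 2 (3.71-fold) and an opposite-strand window of LAMA5 held 9 against 143 (-2.81 ± 0.65).

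Epithelial and mesenchymal lists had shares of called genes near the 19% enriched and 24.5% lower of all genes. Of 49 epithelial junction genes 10 were enriched (20.4%) and 8 lower (16.3%). CDH1, the epithelial E-cadherin, was not called, at 13 against 62 and 121 against 150 reads (0.64 ± 0.33, adjusted p = 0.11). CLDN12, a claudin, held 11 against 31 and 125 against 67 reads (3.30-fold), the desmosome gene DSC3 held 4 against 10 and 71 against 47 (3.02-fold), and PKP1, a desmosomal plaque protein of squamous epithelium, held 0 against 23 and 2 against 67, a ratio of 0.0610 in set 2 (95% exact interval 0.00724 to 0.229). Of 29 mesenchymal and transition genes 7 were enriched (24.1%) and 7 lower (24.1%). GSC stood highest (7.60-fold, sets at 2.94 and 2.92), and CDH11, a cadherin of mesenchymal cells, held 5 against 9 and 92 against 58 reads (3.31-fold). CDH2, N-cadherin, was enriched in its window with the most reads, on the opposite strand (8 against 19 and 37 against 26 reads, 2.86-fold, adjusted p = 0.00364), and more so in its window on the gene's own strand (25757310 to 25759410), with 11 against 11 and 105 against 29 reads (7.08-fold, 2.82 ± 0.41). VIM and ZEB1, vimentin and a repressor of E-cadherin, were enriched at 3.25-fold and 2.69-fold in windows on the opposite strand. SNAI1, another repressor of E-cadherin, was lower, with 2 against 35 and 3 against 135 reads (-3.59 ± 0.65), while its relative SNAI2 was not called and its sets disagreed (1.20 and -2.43). TWIST1 was not called (0.19 ± 0.46), and ACTB, beta-actin, was lower at log2 -1.80 ± 0.66.

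Among genes of the H3K9 methylation machinery 4 of 30 were enriched (13.3%) and 8 lower (26.7%), against 19% and 24.5% of all genes. SUV39H1 (chromosome X, 48551945 to 48554045) held 1 H3K9me3 read against 24 input reads in set 1 and 52 against 64 in set 2. The sets lay on both sides of the typical promoter, at -1.36 and 0.73, and the gene was not called (0.49 ± 0.43, adjusted p = 0.364). Its relative SUV39H2 was lower, with 0 against 16 and 3 against 59 reads, a ratio of 0.104 in set 2 (95% exact interval 0.0208 to 0.319). CBX5, which encodes HP1-alpha, held 0 against 30 and 3 against 72 reads (ratio 0.0852, 0.0172 to 0.259), and TRIM28, the corepressor KAP1, held 0 against 21 and 9 against 65 (log2 -1.97 ± 0.67). SETDB1 was not called (-1.10 ± 0.60, adjusted p = 0.127), nor was the opposite-strand window of EHMT2 with the most reads (-0.14 ± 0.52). The demethylase gene KDM4B was lower (4 against 63 reads in set 2, -2.73 ± 0.69). EHMT1, a partner of EHMT2, was enriched at 7 against 17 and 142 against 94 reads (3.01-fold), as was PRDM16 (106 against 78 in set 2, 2.52-fold), which held 1 against 11 in set 1. Without the set 2 H3K9me3 library PRDM16 lay at -1.08.

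Genes of the Notch and TGF-beta pathways, which pass signals from the cell surface to the nucleus, lay below all genes by their medians. Without the set 1 input and without the set 2 input the lower counts were 5 and 2 for Notch and 5 and 3 for TGF-beta. Of 32 Notch pathway genes 12 were lower (37.5%) and 1 enriched (median -1.20), against 24.5% and 19% of all genes. NOTCH1, a receptor, held 1 against 22 and 2 against 109 reads, a ratio of 0.0375 in set 2 (95% exact interval 0.00449 to 0.139), whereas NOTCH2 held 1 against 10 and 42 against 13 (4.66-fold), with set 1 at -0.13. Of 24 TGF-beta pathway genes 11 were lower and 0 enriched (median -1.55), among them ID1, a target of the BMP branch, at 1 against 31 and 6 against 112 reads (-2.77 ± 0.67), and the ligand gene BMP2, with 0 H3K9me3 reads in both sets against 27 and 33 input reads. Of the 7 tested genes near 13q22, where papillomavirus DNA is integrated in SiHa, 4 were lower and 0 enriched, among them DIS3, an exosome nuclease, and COMMD6, both on the opposite strand, each with 2 H3K9me3 reads in set 2 against 28 and 45 input reads. KLF5 and KLF12 of that region had too few reads to test.

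The enriched share fell as promoter density rose. Among windows with 4 or fewer other windows within 500 kb, 945 of 1859 (50.8%) were enriched and 4.63% lower, and with 40 or more 12.1% were enriched and 34.3% lower. The shares changed in order over all 5 groups of density. Median input reads per window rose along the same order, from 15 to 19 in set 1 and from 28 to 54 in set 2, and their part in the shares was not tested. Both sets fell along it, from a median log2 of 0.47 to -0.70 in set 1 and from 1.27 to -0.68 in set 2. Windows with few input reads could pass the filter through their H3K9me3 reads, and the part of this in the shares was not tested. Windows within 1 Mb of the widest stretch of a chromosome without windows, mostly its centromere or unassembled short arm, were enriched in 176 of 388 cases (45.4%), and those 1 to 2 Mb away in 26.7%. Windows within 1 Mb of the outermost window of a chromosome were enriched in 26.1% and lower in 24.4%. The enriched share was 26.4% at 1 to 2 Mb and 25.9% both at 2 to 5 and at 5 to 10 Mb. It was 17.8% at 10 to 20 Mb and 17.3% over 20 Mb away, where 22.4% were lower.

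**Figure D4:**
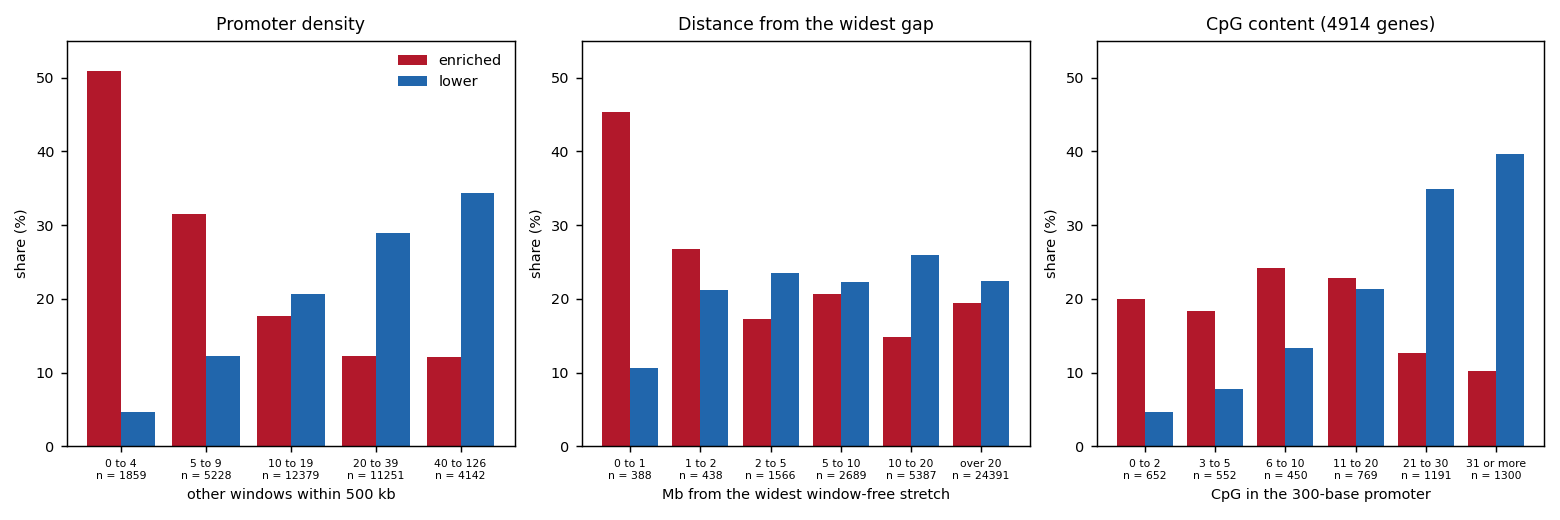
Shares of enriched (red) and lower (blue) windows (y axes, percent) by the number of other windows within 500 kb, by distance in Mb from the widest stretch without windows, and by CpG count of the RefSeq promoter (x axes, with the number of windows or genes in each group). The enriched share fell from 50.8% to 12.1% from the sparsest to the densest group, and the lower share rose from 4.60% to 39.7% from the fewest to the most CpG.

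By chromosome, X stood apart. On X 541 of 1284 windows (42.1%) were enriched and 3.27% lower, against 19.1% and 22.8% of all windows, and the next highest share was 26.2% on chromosome 19. Genes of X outside the cancer-testis families were enriched in 353 of 822 cases, against 36 of 39 within them. The median of these genes lay 1.00 above all genes (0.83 to 1.08 over the alternatives). The enriched count fell to 6 without the set 1 input, 100 without the set 2 input and 102 without the set 2 H3K9me3 library. Median input reads per window on X were 20 and 42, close to the other chromosomes. The enriched share was lowest on chromosomes 17 (8.37%) and 22 (9.95%), and the lower share highest on 16 (37.1%).

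**Figure D5:**
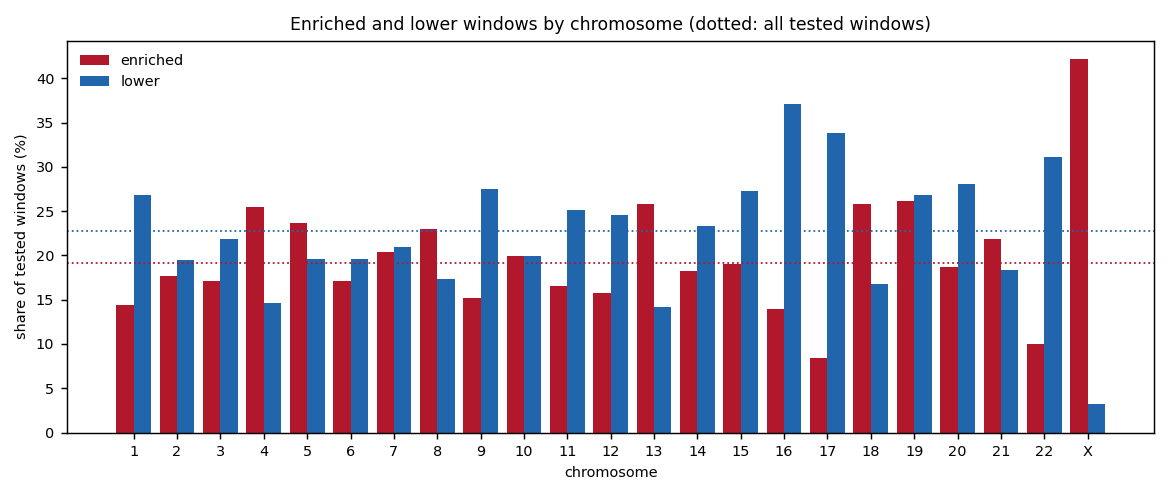
Share of tested windows (y axis, percent) that were enriched (red) or lower (blue) on each chromosome (x axis), with dotted lines at the shares over all windows (19.1% and 22.8%). X had 42.1% enriched and 3.27% lower windows; the Y chromosome, with 1 tested window, is left out.

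Enriched windows followed one another. After an enriched window the next window that did not overlap it was enriched in 2726 of 6336 cases (43.0%) and lower in 8.03%. Runs of at least 10 neighbouring enriched windows numbered 33 and held 485 windows (7.28%), while 2384 enriched windows (35.8%) stood alone. The longest run, 48 windows on chromosome 19 from 53238207 to 54250359, held zinc finger genes from ZNF611 to ZNF331, the vomeronasal receptors VN1R2 and VN1R4 and microRNAs from MIR512-1 onward, with 529 against 1220 reads in set 1 and 5707 against 2601 in set 2. The run of 33 windows over MAGEL2 and SNHG14 came next, then 32 windows on chromosome 7 from 56183993 to 63767937, on both sides of the centromere, with ZNF479, ZNF716, ZNF727 and ZNF679. Further runs on chromosome 19 held 18 windows around ZNF208 and ZNF98 (22034730 to 23600873), 17 around ZNF667, ZIM2 and USP29 (56903087 to 57658570) and 15 around ZNF814 and ZSCAN18 (58376631 to 58740170). Outside zinc finger clusters lay 16 windows on chromosome 18 with EPB41L3, LAMA1 and PTPRM, 15 windows of microRNAs of the MIR506 to MIR514 group on X, 14 windows on chromosome 10 around SORCS1, a sorting receptor gene, and 14 on chromosome 1 with RYR2 and CHRM3, a calcium channel and a muscarinic receptor gene. All of these had higher medians in set 2 than in set 1 and positive medians in both. Runs of lower windows were shorter, with 14 windows at most and 5 runs of 10 or more. In bins of 1 Mb with at least 8 tested windows, 168 of 1737 were at least 50% enriched and held 21.9% of the enriched windows, 319 held none, and 8 were enriched throughout. Those 8 lay on chromosomes 19 and 7 in zinc finger clusters, and elsewhere on 7 and on 1, 12 and 15, where the bin from 26000001 to 27000000 holds ATP10A.

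Promoters called lower were richer in CpG. Over 4914 genes with a single window on the gene's strand, the 300 bases around the RefSeq start held a median of 14 CpG in 797 enriched genes, 28 in 1229 lower genes and 18 in 2888 genes that were not called. With 2 or fewer CpG 19.9% were enriched and 4.60% lower, and with 31 or more 10.2% and 39.7%, so the lower share changed more than the enriched one. Across genes log2 and CpG count correlated at r = -0.343, and at -0.183 in set 1 and -0.351 in set 2. Input reads and GC content correlated at r = 0.0316 in set 1 and 0.322 in set 2, so the libraries also differ in how they sample GC-rich promoters, and the part of this in the relation was not tested. Zinc finger genes of chromosome 19 held a median of 19 CpG over all 136 genes and 17 over the 77 enriched ones. Olfactory receptors, called or not, held 1 over 199 genes, so low CpG content was not shared by both families. The letters TATAAA, on either strand, stood in 15.6% of enriched, 6.27% of lower and 11.99% of all these promoters, and CCAAT in 39.0%, 35.8% and 36.8%.

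No window was called different between migrated and non-migrated cells. In limma's fit of all 8 libraries, the difference in H3K9me3 over input between the fractions passed an adjusted p of 0.05 in 0 of 36440 windows (0%), and 1221 had an unadjusted p under 0.05. With median-of-ratios factors 0 were called and 1307 had such a p, and without weights 0 and 1034. Without the block for the set 0 were called and 360 had such a p. With 1 library left out the count rose to 248 without the set 2 H3K9me3 library of non-migrated cells, 100 without the set 1 H3K9me3 library of migrated cells, 11 without the one of set 2 and 6 without the set 1 H3K9me3 library of non-migrated cells, and was 0 without any of the 4 inputs. The median SE of a difference was 0.67 on the log2 scale, and a window without a call is not shown to be equal in both fractions. Zinc finger genes of chromosome 19 had a median of 1.49 in non-migrated and 1.51 in migrated cells, cancer-testis families 1.36 and 1.58, olfactory receptors 0.86 and 0.79, cell cycle genes -0.90 and -1.55 and actin motility genes -1.40 and -1.69. Over all genes the medians were 0.15 and -0.13, and each fraction was filtered and scaled to its own typical promoter. The gap between 2 such medians is therefore not the fitted difference. In the fit of all 8 libraries the median difference, migrated minus non-migrated, was 0.42 for cancer-testis families and 0.012 for olfactory receptors. It was -0.15 for cell cycle genes and -0.087 for actin motility genes. SUV39H1 and SUV39H2 had no called difference.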

How the data were processed

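Promoter H3K9me3 ChIP-seq and input libraries of migrated SiHa cells were compared, 2 of each. Reads were checked with FastQC 0.11.5 and aligned to hg19 with Bowtie2 2.2.9 and SAMtools 1.3, per the submitters' processing notes, and for the counting of reads per window no program is given in the sources used here. Per the file headers, the deposited values are log2 of read counts in promoter windows, and each of the 4 columns is a whole count plus a constant, with a zero entered as 0.9. Counts were recovered as 0.9 times 2 to the power of the value minus the column's lowest value, and 100% of values came out whole within 0.01. Because the deposited unit is log2, the main test was not a count test. In it, limma 3.58.1 in R 4.3.3 fitted log2 of reads plus 0.5 with voom weights and TMM scaling (trims of 30% and 5%). The set was a block and adjustment was by Benjamini-Hochberg. A quasi-Poisson model of the recovered counts served as an alternative. A window was tested if its 4 libraries held 15 reads or more in all and 2 of them passed what would be 10 reads at the median library size. Since the H3K9me3 libraries count here too, a window with few input reads could pass through its H3K9me3 reads. The method was tested on simulated counts.

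The fit left 1 residual degree of freedom per window, so the spread was borrowed from all windows. Set numbers pair the libraries by the kit in the labels; within a set the deviations of H3K9me3 and input from their group means correlated at r = 0.0618 over 34860 windows. P-values and SEs rest mostly on this pooled spread, with 209.3 prior degrees of freedom, and little on how a window's own 2 sets differ. The sets also differ in kit. A small p or SE does not show that a window's sets were alike, as with ZNF667 (0.88 and 3.62). Members, lists and tests were chosen with earlier results of these data known. Named genes were the 15 enriched genes of highest log2 (sets of equal sign, at least 5 reads in every library), the 15 lower genes of smallest p (sets of equal sign, at least 20 reads in each input library), the 2 enriched and 2 lower genes of smallest p in a list, a fixed set that included the H3K9 and transition genes, and the genes in the longest runs and most enriched bins; not all are printed. Other genes of the Prader-Willi region and the second CDH2 window were added after their values were seen. GAPDH was not analysed here, and a few genes that the rule names are not reported here. Sequences and strands are from RefSeq (GRCh38.p14), matched by symbol. Wilson and exact Clopper-Pearson intervals at 95% came from scipy 1.17.1. Alternatives changed the scaling, filter, weights, added count, model, block and libraries, 1 at a time, with 1 exception. Fits of migrated cells with 1 library left out also dropped the block for the set.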

Additional observations from a re-analysis of the deposited data

How the results depend on the processing

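Counts moved with the centre, the weights, the block and single libraries. In fits of migrated cells alone, a library was left out together with the block. Median-of-ratios factors gave 8009 enriched and 13113 lower windows, total reads 8966 and 12750, the constants in the deposited values 14 and 15810, and a centre at ribosomal protein and oxidative phosphorylation promoters 15370 and 5577; the share enriched among called windows went from 45.5% to 0.0885% and 73.4% with the last 2. Without precision weights 2780 and 3824 windows were called, with at least 10 reads in each input library 4520 and 6870, and with an added count of 2 4576 and 6134. The set served as a block in pairing the libraries, and without this block 3387 windows were enriched and 6514 lower. With 1 library left out, 322 to 5795 windows were enriched and 1398 to 9368 lower, and 0 to 248 differed between the fractions. Bins of 2 Mb that were at least 50% enriched held 23.3% of enriched windows. Over the named genes 1619 of 1879 recomputed values kept direction and call, 221 lost the call, 19 gained one and 20 turned. With the deposited constants the enriched values turned to -0.19 in PCDHA1, -0.58 in PCDHB15, -0.72 in DEFB128, -0.24 in RPL10, -0.43 in COX7B, -0.65 in PSMA8, -1.51 in HOXD3, -0.57 in HOXA3, -0.070 in LAMA1, -0.17 in ITGA8, -0.19 in CLDN12, -0.14 in DSC3, -0.16 in EHMT1, -1.69 in PRDM16, -1.26 in NOTCH2, -0.10 in CDH2, -0.30 in VIM and -0.67 in ZEB1. With 1 library left out, HOXD3 ranged from -0.47 to 1.58 and PRDM16 from -1.08 to 2.59, both lowest without the set 2 H3K9me3 library. The cause of these shifts was not tested, and with a median of 1 H3K9me3 read per window in set 1, depth limits what that set can show at single windows.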

Other observations

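Some genes carried called windows of both kinds. Of 7133 genes with 2 or more tested windows, 468 had every tested window enriched, 1063 had every one lower, and 257 had at least 1 of each. CCDC3, which encodes a secreted coiled-coil protein on chromosome 10, was picked as an example after its values were seen. Its window from 12966685 to 12968785 held 9 H3K9me3 against 20 input reads in set 1 and 56 against 35 in set 2 (log2 1.67 ± 0.41). Its window from 13141552 to 13143652, on the same strand, held 0 H3K9me3 reads in both sets against 21 and 47 input reads and was lower. A value for a gene with several starts therefore describes the window it was read from, and the choice of the window with the most input reads sets which one that is.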
